A study of Mus musculus with 8 samples.

Results

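Lysosomal enzymes and membrane proteins were examined in the cortex of mice that express human TDP-43 in the cytoplasm. The genes were 44 named lysosomal hydrolases, activators and membrane proteins, chosen by symbol, and 38 of the 44 had values among the 10588 genes tested. The other 6, Naglu, Sgsh, Galns, Aga, Cd63 and Cln3, were not among the symbols that could be joined to values and were not analysed here. All 38 passed the filter on low values, and the lowest value of any of them in any mouse was 168 normalized counts.

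Lysosomes are acidic organelles in which soluble hydrolases break down lipids, glycogen, glycans and proteins that arrive by endocytosis and autophagy. The enzymes are sorted to the lysosome largely by mannose 6-phosphate receptors, several need small activator proteins to reach their lipid substrates, and membrane proteins keep the lumen acidic and export the products. The transcription factors TFEB and TFE3 are known to activate many of these genes through short promoter elements built around CACGTG. Inherited loss of single enzymes causes lysosomal storage diseases, many of which damage neurons.

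The bigenic mice (n = 4) carried a Camk2α-tTA transgene, which is active mainly in forebrain excitatory neurons, and a tetO-ΔNLS-hTDP-43 transgene encoding human TDP-43 with a mutated nuclear localization signal. Doxycycline in the diet kept the transgene off until 28 days of age, and right cortex was taken 10 days after its removal. Controls were nontransgenic mice (n = 4) of the same C57BL/6 background, age and diet, which lack both transgenes, so any effect of tTA alone cannot be told apart from that of ΔNLS-hTDP-43. Both groups held males and females. Poly(A)+ RNA of the whole right cortex was sequenced, so that fewer cells of a type and less RNA per cell cannot be told apart in any of the values below. The labels were checked on the transcript taken to be that of the transgene, which is in no annotation used here. It had 29375 to 41550 normalized counts in bigenic animals and 5 to 80 in the nontransgenic mice. The log2(fold change) of the endogenous Tardbp was -0.33 (limma adjusted p-value = 0.00645).

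Values are the authors' normalized counts, which are reads divided by a factor for each mouse and rounded. The reads on genes behind them were estimated as 10.63 M to 31.93 M per mouse, at which 3 reads correspond to 1.94 to 6.2 normalized counts. This floor covers counting error only and lies far under every value of the lysosomal members. The shallowest library, with 10.63 M reads, belonged to a bigenic mouse that also stood apart on the principal components of all genes (first component 46.0 against 12.8 to 15.1 in the other bigenic mice, second component -22.3 against 15.0 to 15.9). Values of single mice are listed below in 1 fixed order, in which the shallowest bigenic mouse is the second of the bigenic mice. Results of the 38 measured members are given without that mouse where it moved them by more than 1.5 times or changed a call or a sign. For single genes of the other lists such results are not given. Log2(fold changes) are differences of log2(normalized count + 1), bigenic minus nontransgenic, with adjusted p-values from limma over all 10588 genes.

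Promoters of members that rose are shown first, where they hold CACGTG, the core of the element that TFEB and TFE3 are known to bind. The part of these factors in the rises was not tested. Of the 38 members, 34 had a RefSeq promoter in GRCm38.p6 (250 bases before to 50 after the start) that could be read here. CACGTG, which reads the same on both strands, was found in 13 of the 34 (38.2%), against 7.15% of all 32851 promoters and 12.5% of the 7448 tested genes with a promoter. Members and tested genes are counted by gene, and the 32851 by promoter. CACGTG was present for 7 of the 10 members that rose, 6 of the 20 members that did not pass the threshold and 0 of the 4 that fell. In the lines below, capitals mark CACGTG together with the adjoining letters that extend it toward GTCACGTG or TCACGTGA, and each window is written 5′ to 3′ on the strand of the gene.
Gla, chrX:134601182-134601211, minus strand: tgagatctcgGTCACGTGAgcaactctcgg
Gla, chrX:134601215-134601244, minus strand: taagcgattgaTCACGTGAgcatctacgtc
Gaa, chr11:119267811-119267840, plus strand: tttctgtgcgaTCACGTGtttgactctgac
Ctsd, chr7:142387908-142387937, minus strand: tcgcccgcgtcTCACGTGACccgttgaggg
Arsa, chr15:89477423-89477452, minus strand: tcaactcagtGTCACGTGttgtctgctcct
Dpp7, chr2:25356388-25356417, minus strand: ccgccagactaTCACGTGAtgctgccccgc
Clcn7, chr17:25133364-25133393, plus strand: tccgtcgtcaGTCACGTGggcaccgatgat
Ctsl, chr13:64370739-64370768, minus strand: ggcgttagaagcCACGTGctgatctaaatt
The remaining members that hold CACGTG were Ctsa, Ctsf, Glb1, Lamp1, Lgmn and Mcoln1, of which Lamp1 and Mcoln1 are shown because their promoters hold the same letters and their RNA did not pass the threshold. Ctsd, Clcn7, Lamp1 and Mcoln1 hold further matches that are not printed, so the lines printed per gene are not a count of its matches.
Lamp1, chr8:13159134-13159163, plus strand: acgtgaccacaTCACGTGcggaacggagcc
Mcoln1, chr8:3500436-3500465, plus strand: ggtcgcgcttGTCACGTGttcagttcaggc

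The longer forms of the element overlap CACGTG and were searched on both strands. GTCACGTG was found for 9 of the 34 members, against 2.25% of all promoters and 5.24% of the tested genes with a promoter. TCACGTGA was found for 6 of the 34, against 0.974% and 2.42%. Each of the longer forms was in 4 of the 10 promoters of members that rose and in 0 of the 4 of members that fell, and among the 20 members that did not pass the threshold GTCACGTG was in 5 and TCACGTGA in 2. The nearest of the printed matches to a start site lay 15 bases before it in Clcn7 and Lamp1 and 16 in Arsa, and the farthest was 236 bases before it in Ctsl. A match is a description of letters in these windows, and binding of a factor was not measured.

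Across the 38 members, the enzymes with the largest changes moved in both directions. Gla and Gaa rose more than 2-fold, Ctsd and Neu1 rose more than 1.5-fold, and Ids fell to 0.444 of its nontransgenic level. By limma, 14 of 38 members (36.8%) passed the adjusted p-value threshold of 0.05, where 35.9% of all tested genes did. Of these, 10 were higher (26.3% of the members, against 20.5% of all genes) and 4 were lower (10.5% against 15.4%), so the shares of members called lay near those of all genes. The median log2(fold change) was 0.06 over the members and 0.03 over all genes, and 21 of 38 members had a value above 0, against 53.3% of all genes. A change of at least 1.5-fold with an adjusted p-value below 0.05 was found for 5 members (13.2%, against 12.4% of all genes).

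**Figure D1:**
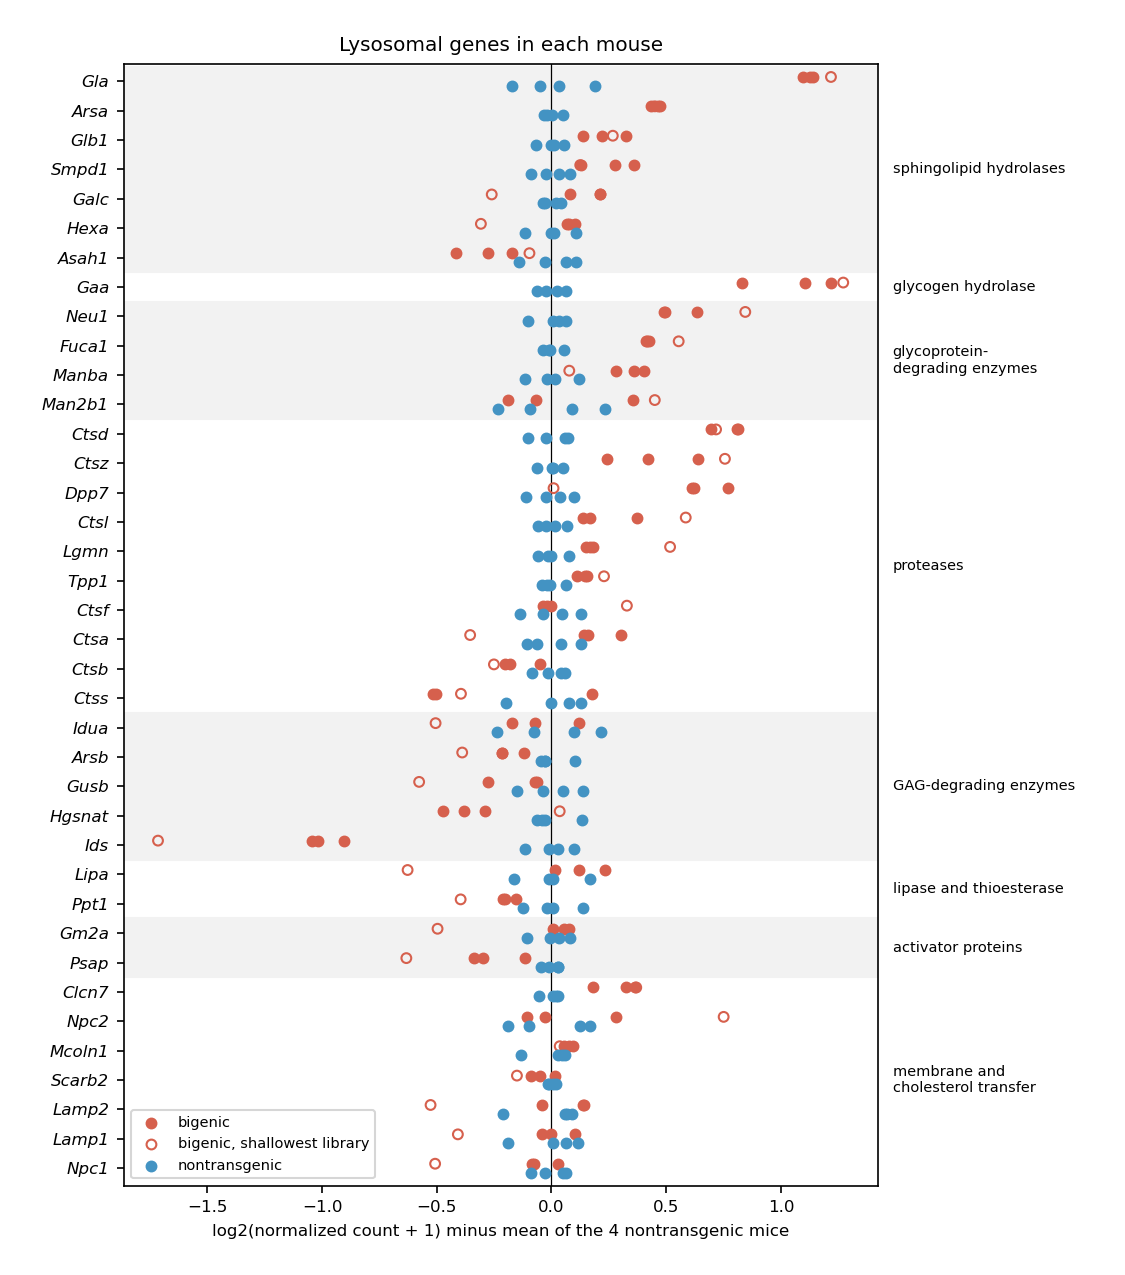
Each point is 1 mouse and each row 1 of the 38 measured members, grouped by role; the x axis is log2(normalized count + 1) minus the mean of the 4 nontransgenic mice (GAG, glycosaminoglycan). Bigenic mice (red) lie to the right of all nontransgenic mice (blue) for Gla, Gaa, Ctsd and Neu1 and to the left for Ids, and the shallowest bigenic library (open circle) is often at an end of its group.

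In 17 of 38 members (44.7%) the groups were fully separated, against 39.0% of all genes. The bigenic mice were the higher group in 13 of these (34.2%, against 22.3%) and the lower in 4 (10.5%, against 16.7%). The 13 were the members that rose except Dpp7, together with Lgmn, Glb1, Smpd1 and Tpp1, whose adjusted p-values were above 0.05. The 4 lower members without overlap were the 4 that limma called.

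Among the 7 hydrolases of sphingolipids, 2 rose, 0 fell and 5 did not pass the threshold, with a median log2(fold change) of 0.22. For this and each role below, the shares of all genes that rose and fell were 20.5% and 15.4%. Gla, α-galactosidase A, removes the terminal galactose of globotriaosylceramide and is the enzyme deficient in Fabry disease. Its normalized counts were 656, 693, 650 and 636 in bigenic animals and 304, 264, 339 and 287 in nontransgenic animals. Every bigenic mouse was thus far above every nontransgenic mouse. The rise was 2.21-fold, a log2(fold change) of 1.14 (standard error, SE, 0.09, limma adjusted p-value = 3.9e-05). In mm9, Gla lies on chromosome X, 131122688 to 131135664, and its exons overlap no other annotated gene.

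Arsa, arylsulfatase A, desulfates the myelin lipid sulfatide. It had 837, 829, 841 and 819 normalized counts in bigenic animals and 598, 627, 608 and 593 in nontransgenic animals. Both groups were tight and did not overlap, with a log2(fold change) of 0.45 (SE 0.07, limma adjusted p-value = 0.000829). The gene lies on chromosome 15, 89302907 to 89307856 in mm9, and 18.8% of its exon length is shared with C230037L18Rik on the opposite strand. Whether reads were counted by strand is not given in the sources used here, so reads of the pair cannot be told apart.

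The other sphingolipid hydrolases had smaller differences. Glb1, the lysosomal β-galactosidase, and Smpd1, acid sphingomyelinase, were at 0.24 and 0.22 on the log2 scale (limma adjusted p-values of 0.0503 and 0.0543), and in both the bigenic mice lay above all nontransgenic mice. Galc, which degrades galactosylceramide of myelin, was at 0.06, and at 0.17 without the shallowest bigenic mouse (limma adjusted p-value = 0.0604). Hexa, which degrades GM2 ganglioside, was at -0.02, and at 0.08 without that mouse. For Asah1, acid ceramidase, the value was -0.24 (limma adjusted p-value = 0.0685). Without the shallowest bigenic mouse, Glb1, Smpd1 and Asah1 passed the threshold, at 0.23, 0.26 and -0.29 (limma adjusted p-values of 0.0424, 0.0143 and 0.0161).

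Gaa, acid α-glucosidase, degrades glycogen in the lysosome and is deficient in Pompe disease. Bigenic mice had 6328, 7108, 5227 and 6856 normalized counts and nontransgenic mice had 2818, 2990, 2894 and 3077. The lowest bigenic mouse was well above the highest nontransgenic mouse, and the bigenic values were the more spread out, with an SD of 834.4 against 112.8 normalized counts (n = 4 each). Gaa rose 2.15-fold, a log2(fold change) of 1.11 (SE 0.10, limma adjusted p-value = 6.05e-05). It lies on chromosome 11, 119129201 to 119146768 in mm9, with no overlapping exons of another gene.

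Of the 4 measured enzymes that degrade glycoproteins, 2 rose and 0 fell, and the median log2(fold change) was 0.37. Neu1, the lysosomal sialidase, had 1482, 1888, 1476 and 1630 normalized counts in bigenic animals and 1098, 978, 1057 and 1074 in nontransgenic animals. The groups did not overlap, and the highest value was that of the shallowest library. The log2(fold change) of Neu1 (chromosome 17, 35068198 to 35072898 in mm9) was 0.62 (SE 0.09, limma adjusted p-value = 0.00102).

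Fuca1, α-L-fucosidase, rose by less. Its normalized counts were 685, 757, 688 and 693 in bigenic animals and 502, 511, 513 and 535 in nontransgenic animals, again without overlap. The log2(fold change) was 0.45 (SE 0.07, limma adjusted p-value = 0.0014), and the gene lies on chromosome 4, 135476650 to 135496226 in mm9. Manba, β-mannosidase, was at 0.28 (limma adjusted p-value = 0.0589) and Man2b1, lysosomal α-mannosidase, at 0.14 (limma adjusted p-value = 0.521, and 0.03 on the log2 scale without the shallowest bigenic mouse). Manba passed the threshold without the shallowest bigenic mouse, at 0.35 (limma adjusted p-value = 0.0082).

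The 10 proteases included 4 that rose, 0 that fell and 6 that did not pass the threshold, with a median log2(fold change) of 0.21. Ctsd, the aspartic protease cathepsin D, was the most abundant of the members that rose. It had 10274, 9623, 9481 and 10265 normalized counts in bigenic animals and 5748, 6088, 6152 and 5447 in nontransgenic animals. Both groups were narrow and lay far apart. The rise was 1.69-fold, a log2(fold change) of 0.76 (SE 0.07, limma adjusted p-value = 6.71e-05). In mm9 Ctsd lies on chromosome 7, 149557053 to 149573943, and 6.5% of its exon length is shared with 6330512M04Rik on the same strand.

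Ctsz, cathepsin Z, is a carboxypeptidase. The bigenic mice had 915, 993, 694 and 787 normalized counts and the nontransgenic mice 563, 609, 591 and 588. All bigenic values were higher, and their SD was 132.9 against 18.9 normalized counts (n = 4 each). Ctsz had a log2(fold change) of 0.51 (SE 0.11, limma adjusted p-value = 0.00624, chromosome 2, 174252994 to 174264540 in mm9).

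Dpp7, dipeptidyl peptidase 7, was the single member that was called although its groups overlapped. Its normalized counts were 472, 308, 469 and 522 in bigenic animals and 301, 314, 328 and 283 in nontransgenic animals. The shallowest bigenic mouse lay among the nontransgenic mice and the other bigenic mice lay above them. With all mice the log2(fold change) was 0.50 (SE 0.16, limma adjusted p-value = 0.0295), and without the shallowest mouse it was 0.67 (limma adjusted p-value = 0.000138). Dpp7 (chromosome 2, 25207796 to 25211879 in mm9) lost its call when any other mouse was left out, at limma adjusted p-values up to 0.0782.

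Ctsl, the cysteine protease cathepsin L, had 2329, 2697, 1980 and 2019 normalized counts in bigenic animals and 1727, 1766, 1816 and 1884 in nontransgenic animals. The groups did not overlap, but the lowest bigenic mouse was close to the highest nontransgenic mouse. The log2(fold change) was 0.32 (SE 0.10, limma adjusted p-value = 0.0368, chromosome 13, 64464522 to 64471614 in mm9), and the call was kept in 3 of the 8 fits that left out 1 mouse. It was lost without the bigenic mouse at 2329 or without any nontransgenic mouse.

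Ctsb, cathepsin B, is a cysteine protease like Ctsl and differed in sign from it. It had 9698, 8442, 8739 and 8854 normalized counts in bigenic animals and 10352, 9928, 10475 and 9458 in nontransgenic animals, so that 1 bigenic mouse lay within the nontransgenic range. Ctsb differed by -0.17 on the log2 scale (SE 0.07, limma adjusted p-value = 0.0851), and passed the threshold at -0.21 without the bigenic mouse at 9698 (limma adjusted p-value = 0.0471). In addition, 16.2% of the exon length of Ctsb (chromosome 14, 63741302 to 63764758 in mm9) is shared with Fdft1 on the opposite strand.

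Of the remaining proteases, Lgmn, the asparaginyl endopeptidase legumain, was at 0.25 (limma adjusted p-value = 0.0579, and 0.0344 without the shallowest bigenic mouse, at 0.17). Tpp1, tripeptidyl peptidase 1, was at 0.16 (limma adjusted p-value = 0.0909). Ctsf, another cysteine protease, and Ctsa, the carboxypeptidase that also protects Neu1 and Glb1 in a complex, were at 0.07 and 0.06. Without the shallowest bigenic mouse Ctsf was at -0.02 and Ctsa at 0.20 (limma adjusted p-value = 0.0511). For Ctss, a protease known from microglia, the log2(fold change) was -0.31 (limma adjusted p-value = 0.14).

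The values of Ctss were 1262, 848, 779 and 787 normalized counts in bigenic animals and 972, 1112, 1218 and 1174 in nontransgenic animals. One bigenic mouse was above all nontransgenic mice and the other bigenic mice were below them. Without the bigenic mouse at 1262, Ctss passed the threshold at -0.47 (limma adjusted p-value = 0.00735). In the same order, the microglial complement gene C1qa had 354, 244, 228 and 258 in bigenic animals and 335, 362, 372 and 360 in nontransgenic animals, and the microglial receptor Cx3cr1 had 809, 802, 881 and 806 against 1258, 1307, 1295 and 1029. C1qa and Ctss were highest in the same bigenic mouse, whereas Cx3cr1 was not. The part of microglia in the Ctss values was not tested.

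**Figure D2:**
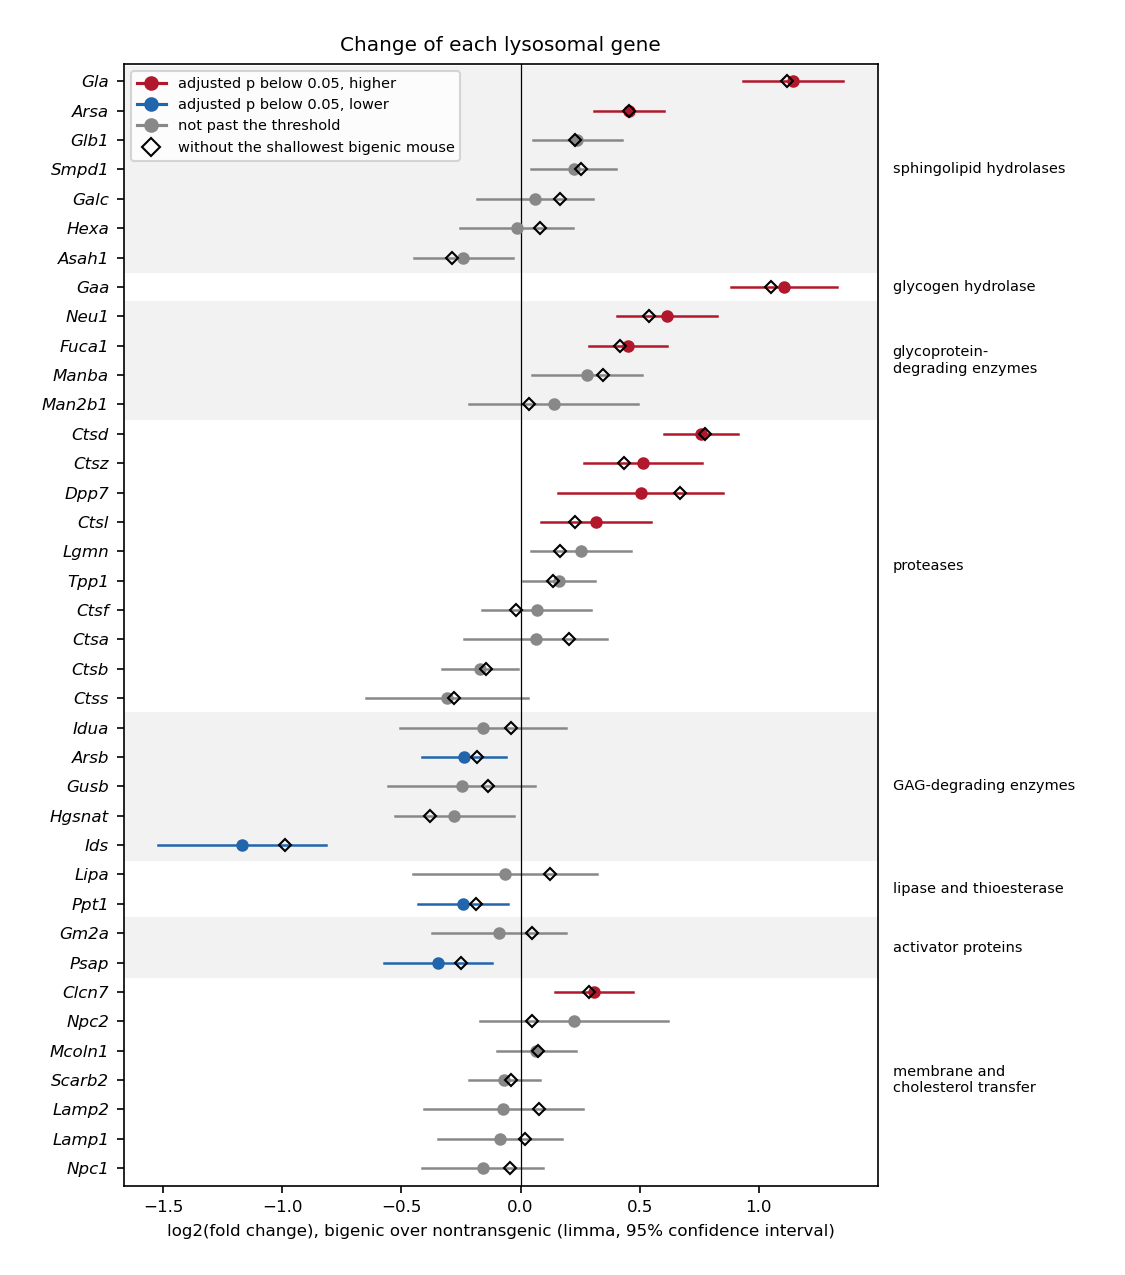
Points are the log2(fold change) of each measured member, bigenic over nontransgenic, with 95% confidence intervals from limma, coloured by the adjusted p-value over all genes; diamonds are the values without the shallowest bigenic mouse. The 5 measured glycosaminoglycan-degrading (GAG) enzymes all lie below 0, with Ids the furthest from it, and Gla, Gaa and Ctsd lie furthest above 0.

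The 5 measured enzymes that degrade glycosaminoglycans all had log2(fold changes) below 0, with a median of -0.25, and 2 of the 5 fell, 0 rose and 3 did not pass the threshold. Ids, iduronate 2-sulfatase, acts on heparan and dermatan sulfate and is deficient in Hunter syndrome. Its normalized counts were 7268, 4568, 8016 and 7404 in bigenic animals and 16050, 14902, 15290 and 13839 in nontransgenic animals. Every bigenic mouse was far below every nontransgenic mouse, and the shallowest was the lowest.

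Ids was 55.6% lower in bigenic animals, with a log2(fold change) equal to -1.17 (SE 0.16, limma adjusted p-value = 0.000548), and without the shallowest mouse the value was -0.99 (limma adjusted p-value = 2.69e-06). The gene lies on chromosome X, 67596244 to 67618260 in mm9, with no overlapping exons. Ids and Gla, the members with the largest fall and the largest rise, are thus on the same chromosome.

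Arsb, arylsulfatase B, also acts on dermatan sulfate. It had 2379, 1975, 2226 and 2226 normalized counts in bigenic animals and 2780, 2535, 2535 and 2506 in nontransgenic animals. The groups did not overlap, with a log2(fold change) of -0.24 (SE 0.08, limma adjusted p-value = 0.0415, and 2 of the 8 fits that left out 1 mouse kept the call). The exons of Arsb (chromosome 13, 94541634 to 94712971 in mm9) share 45.3% of their length with Gm17447 on the opposite strand, the largest such share among the members. Hgsnat, the membrane enzyme that acetylates heparan sulfate, was at -0.28 (limma adjusted p-value = 0.0796, and 0.00213 without the shallowest mouse, at -0.38). Gusb, β-glucuronidase, and Idua, α-L-iduronidase, were at -0.25 and -0.16 (limma adjusted p-values of 0.188 and 0.454). Without the shallowest mouse they were at -0.14 and -0.04.

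The activators and the lipid esterases gave 2 more falls and 0 rises. Psap encodes prosaposin, the precursor of the saposins that present sphingolipids to their hydrolases. Normalized counts of Psap were 26249, 18348, 22514 and 23114 in bigenic animals and 29055, 27542, 28235 and 28977 in nontransgenic animals. The nontransgenic mice were close together and the bigenic mice were spread below them.

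Psap (chromosome 10, 59740375 to 59765345 in mm9) thus had a log2(fold change) of -0.35 (SE 0.10, limma adjusted p-value = 0.0236), a level 21.3% lower. The call was lost without any 1 of the nontransgenic mice, with limma adjusted p-values of up to 0.0627, and kept without any 1 of the bigenic mice. Gm2a, the activator that lifts GM2 ganglioside for Hexa, was at -0.09 (limma adjusted p-value = 0.605), and at 0.05 without the shallowest mouse.

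Ppt1, palmitoyl-protein thioesterase 1, removes fatty acids from proteins and is deficient in an infantile form of neuronal ceroid lipofuscinosis. It had 1558, 1369, 1620 and 1564 normalized counts in bigenic animals and 1981, 1654, 1777 and 1809 in nontransgenic animals. The highest bigenic mouse was just under the lowest nontransgenic mouse. The log2(fold change) was -0.24 (SE 0.08, limma adjusted p-value = 0.0496, chromosome 4, 122513485 to 122536418 in mm9), and 1 of the 8 fits that left out 1 mouse kept the call. Lipa, the lysosomal acid lipase, was at -0.06 (limma adjusted p-value = 0.791), and at 0.12 without the shallowest mouse.

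Among the 7 measured proteins of the membrane and of cholesterol transfer, 1 rose, 0 fell and 6 did not pass the threshold, with a median log2(fold change) of -0.07. Clcn7, a chloride and proton exchanger, had 1022, 1166, 1131 and 1160 normalized counts in bigenic animals and 915, 907, 920 and 868 in nontransgenic animals. The groups did not overlap, with a log2(fold change) of 0.31 (SE 0.07, limma adjusted p-value = 0.00933, chromosome 17, 25270336 to 25299049 in mm9).

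Lamp1 and Lamp2 encode the main glycoproteins of the lysosomal membrane. Lamp1 (chromosome 8, 13159135 to 13175338 in mm9) had 4993, 3503, 4643 and 4521 normalized counts in bigenic animals and 4674, 4863, 5038 and 4076 in nontransgenic animals. Lamp2 (chromosome X, 35754534 to 35809631) had 608, 434, 691 and 688 against 655, 666, 651 and 540. The groups overlapped in both, and in both the lowest of all mice was the shallowest bigenic mouse. Log2(fold changes) were -0.09 (95% confidence interval -0.35 to 0.17) for Lamp1 and -0.07 (95% confidence interval -0.41 to 0.26) for Lamp2, and without the shallowest mouse they were 0.02 and 0.08.

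Npc1, the membrane protein that exports cholesterol, had 1307, 970, 1301 and 1408 normalized counts in bigenic animals and 1354, 1441, 1429 and 1297 in nontransgenic animals. The groups overlapped, with a log2(fold change) of -0.16 (95% confidence interval -0.41 to 0.10), and -0.04 without the shallowest mouse. The exons of Lamp1, Ppt1 and Ctsz share 7.8%, 3.5% and 0.7% of their length with a gene on the opposite strand. Npc2, the soluble partner of Npc1, was at 0.22 (limma adjusted p-value = 0.347), and at 0.05 without the shallowest mouse. Mcoln1, the calcium channel mucolipin 1, was at 0.07 and Scarb2, a membrane glycoprotein that acts as a sorting receptor, at -0.07, the latter at -0.04 without the shallowest mouse.

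To compare levels between genes, normalized counts were divided by exon length for the 37 members with a single position in mm9. The counts belong to transcripts in the authors' annotation, whereas the lengths are those of the gene's exons in GENCODE. Whether both cover the same exons was not tested, so the order of genes below can depend on the annotated lengths. The comparison of both groups for the same gene uses the same length. Psap had the highest level per kb in both groups, 10425.9 normalized counts per kb in the nontransgenic and 8265.4 in the bigenic mice. In nontransgenic mice it was followed by Ids at 2944.0, Ctsd at 2325.8, Ctsb at 2121.8 and Lamp1 at 2067.7. In bigenic mice the order of the next members was Ctsd at 3934.4, Lamp1 at 1957.9, Ctsb at 1885.4, Ids at 1335.6 and Gaa at 1333.8. The ranges over mice overlapped for Ctsd with Ctsb and for Ctsb with Lamp1 in the nontransgenic mice, and for Lamp1 with Ctsb and with Ids and for Ids with Gaa in the bigenic mice, so these neighbours are not ordered beyond their spread. The lowest levels per kb were those of Manba (50.4 in bigenic and 41.4 in nontransgenic mice), Gusb (46.9 and 55.4), Idua (54.0 and 59.9) and Lamp2 (63.4 and 65.7).

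**Figure D3:**
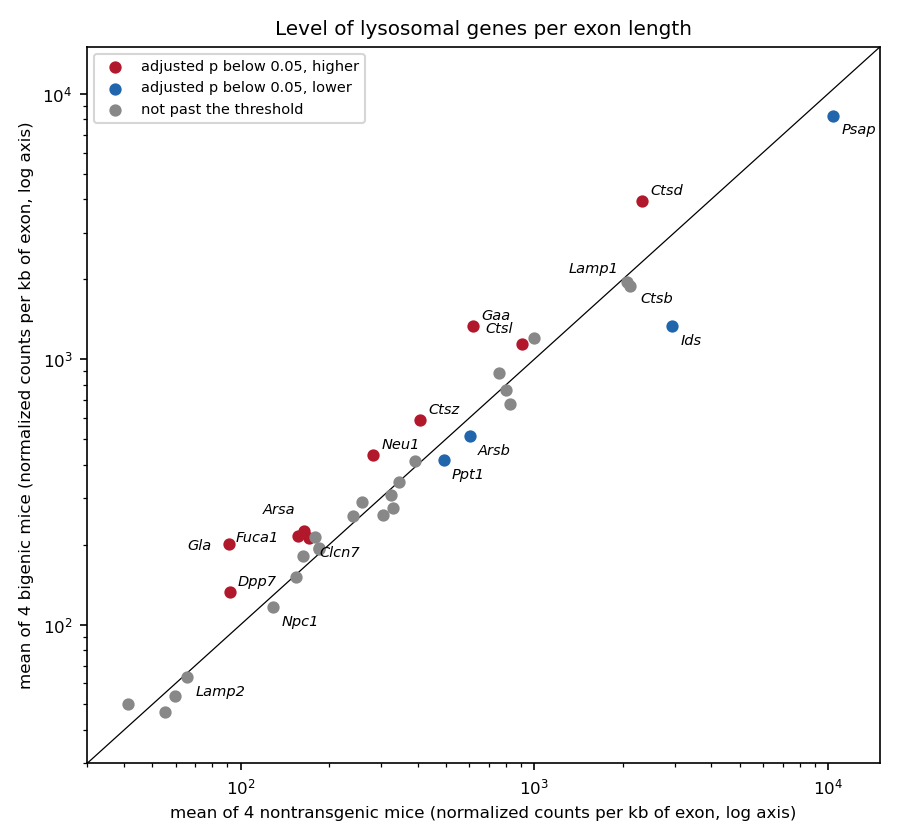
Mean level of 37 members per kb of exon, bigenic mice (y) against nontransgenic mice (x), both on log axes; the line marks equal levels and colours show the limma call over all genes. Psap is the highest in both groups, and Ctsd and Gaa lie above the line while Ids lies below it.

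The spread within the bigenic group was larger than within the nontransgenic group for 33 of the 38 members, with a median coefficient of variation of 13.0% against 5.8%. Without the shallowest bigenic mouse the bigenic median was 5.7%. That mouse was the lowest of the 4 bigenic mice for 20 members (52.6%, against 38.4% of all genes) and the highest for 14 (36.8%, against 43.1%). Without it, 20 members were called (52.6%, against 45.5% of all genes), 14 higher (36.8%, against 25.3%) and 6 lower (15.8%, against 20.2%). The 6 further calls were Manba, Lgmn, Glb1 and Smpd1 upward and Asah1 and Hgsnat downward.

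The calls of Gla, Gaa, Ctsd, Neu1, Ctsz, Arsa, Fuca1, Clcn7 and Ids were kept in all 8 fits that left out 1 mouse and under all 7 other settings tried at the same threshold. Ctsl, Arsb, Ppt1 and Psap were each lost in at least 4 of the 8, and Dpp7 in 7.

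Other lysosomal hydrolases and cofactors outside the 44 genes were taken from a list of 26, of which 20 were measured. In that list 9 rose (45.0%) and 2 fell (10.0%), against 20.5% and 15.4% of all genes, with a median log2(fold change) of 0.25. Plbd2, a phospholipase B-like protein, had 2203, 2434, 2369 and 2603 normalized counts in bigenic animals and 1040, 1010, 1017 and 1084 in nontransgenic animals, or 1.21 as log2(fold change) (limma adjusted p-value = 1.3e-05). The falls were those of Ctso, a cysteine protease, at -0.36 and Siae, a sialic acid esterase, at -0.35.

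Other lysosomal membrane proteins had 5 rises (26.3%) and 2 falls (10.5%) among 19 measured of 21, near the 20.5% and 15.4% of all genes, with a median of 0.13. Spns1, a transporter of lysophospholipids, rose by 0.59 and Tmem192 by 0.51 on the log2 scale. Laptm4b and Laptm4a, a pair of related transmembrane proteins, were lower, at -0.48 and -0.27.

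The V-ATPase, the proton pump that acidifies the lysosome and also synaptic vesicles, had 2 rises (11.1%, against 20.5% of all genes) and 8 falls (44.4%, against 15.4%) among 18 measured of 19 genes, with a median of -0.24. With 1 mouse left out the falls ranged from 4 to 10. Atp6ap2, an accessory subunit, had 3485, 1754, 3985 and 3637 normalized counts in bigenic animals and 6853, 5833, 6611 and 5561 in nontransgenic animals, or -1.01 as log2(fold change) (limma adjusted p-value = 0.00711). Atp6v0c, the membrane ring subunit, was at -0.94 (limma adjusted p-value = 0.0289). It had 204, 124, 315 and 316 normalized counts in bigenic animals and 428, 505, 506 and 316 in nontransgenic animals. The groups thus met at 316, and the lowest value was that of the shallowest bigenic mouse. Atp6v1e1 and Atp6v1f, of the cytoplasmic part, rose by 0.56 and 0.39. Of 10 neuronal markers, given below, 6 fell and 1 rose in the same mice. The part of neurons in the V-ATPase values was not tested.

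The machinery of mannose 6-phosphate tagging and sorting had 4 rises (36.4%) and 1 fall (9.09%) among 11 genes, against 20.5% and 15.4% of all genes, with a median of 0.29. Nagpa, which uncovers the mannose 6-phosphate tag, was at 0.69, but it passed the filter on low values only through the bigenic mice. Its direction was thus set by the filter, and the 4 rises and all other counts of this list include it. Igf2r, the large mannose 6-phosphate receptor, rose by 0.60 (1649, 1971, 1819 and 1888 against 1239, 1159, 1168 and 1251 normalized counts, limma adjusted p-value = 0.000436). Sort1, sortilin, fell by 0.30. Grn, progranulin, was at 0.38 (limma adjusted p-value = 0.0883), with 778, 1168, 670 and 723 normalized counts in bigenic animals and 611, 578, 685 and 640 in nontransgenic animals. Its highest value was that of the shallowest bigenic mouse, and the log2(fold change) of Grn without that mouse is not reported here.

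Among genes of TFEB and mTORC1 signalling, 7 of 22 measured rose (31.8%, against 20.5% of all genes) and 2 fell (9.09%, against 15.4%), with a median of 0.23. The rises numbered 4 without either of 2 nontransgenic mice and up to 9 without another mouse. Tfe3 rose by 0.28 (596, 724, 635 and 607 against 532, 579, 497 and 503 normalized counts, limma adjusted p-value = 0.0392), and Tfeb was not analysed here. Fnip2 and Flcn, partners in the folliculin complex that acts on the Rag GTPases, rose by 0.69 and 0.48. Rragd and Rraga, which are Rag GTPases, fell by 0.58 and 0.56.

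**Figure D4:**
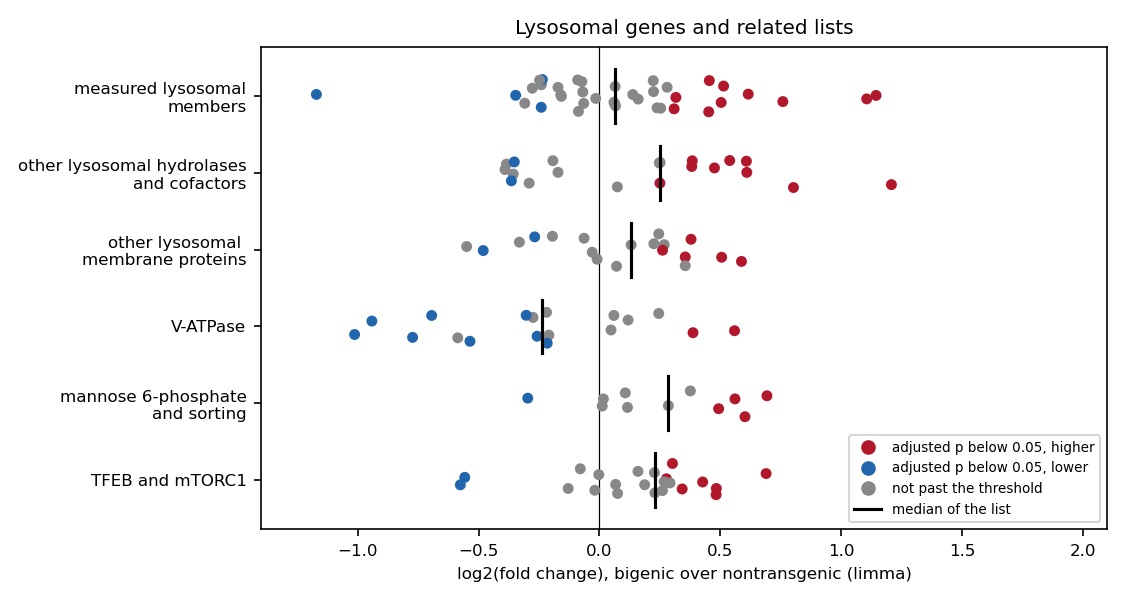
Each point is the log2(fold change) of 1 gene, bigenic over nontransgenic, coloured by the limma call over all genes; rows are the 38 measured members and 5 related lists, and vertical bars are medians. The median of the V-ATPase genes is -0.24, and those of the other lists lie between 0.06 and 0.29.

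Markers of the cell types in the tissue moved as well. Of 10 neuronal markers 6 fell (60.0%) and 1 rose (10.0%), against 15.4% and 20.5% of all genes. Their summed normalized counts were 174282 to 214352 in the bigenic and 237080 to 256843 in the nontransgenic mice. Of 9 measured microglial markers 5 fell (55.6%) and 0 rose, with sums of 5268 to 6873 against 7057 to 8321. Of 9 astrocyte markers 4 fell (44.4%) and 0 rose, with sums of 124227 to 143709 against 151259 to 163002. Most of the astrocyte sum came from Slc1a2, with a mean of 90026.2 in the bigenic and 106787.2 in the nontransgenic mice. Gfap, the intermediate filament of astrocytes, was at a log2(fold change) of 0.04. Oligodendrocyte markers, with 1 rise and 0 falls among 10, overlapped between groups (66375 to 88012 against 67095 to 84083), and Mbp, the myelin basic protein, was at -0.20. Of 7 endothelial markers 1 fell (14.3%) and 0 rose.

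Ttr, a marker of the choroid plexus, an epithelium next to but not part of the cortex, was higher in all bigenic mice. It is 1 of 5 measured of 12 listed markers. Clic6, F5, Kl and Prlr passed the filter on low values only through the bigenic mice, so that their direction was set by the filter and is not counted here. Ttr, which passed in every mouse, had 18520, 7741, 16795 and 11356 against 801, 236, 835 and 1023. Aqp1, Folr1, Kcne2, Otx2, Slc4a5, Sostdc1 and Steap1 of the same list were not analysed here. The part of any of these cell types in the values of the lysosomal genes was not tested.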

How the data were processed

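The authors trimmed the reads with cutadapt, mapped them to mm9 with Bowtie 0.12.7, kept unique reads, counted them per exon with bedtools, merged exons into genes and ran DESeq2. The deposited signal is a normalized count for each of 28662 transcripts in each of 8 mice, rounded to whole numbers, so it is not a raw count. The scaling itself is not given in the sources used here. A second deposited table holds the authors' DESeq2 comparison for 10601 genes, with the mean, log2(fold change), its error and p-values, of which the identifiers and symbols were used and the results were not. Columns were assigned to groups by the genotype in their names.

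The reads per mouse were estimated from the step at which whole numbers are missing or doubled. Rounding leaves whole reads unrecoverable where a read is worth less than 1 normalized count, so no count model was run. Genes with at least 10 RPM in at least 1 mouse were kept (10588 genes), transformed as log2(value + 1) and compared with limma 3.58.1 (trended eBayes) in R 4.3.3, with Benjamini-Hochberg adjustment over all of them. In data simulated for 10588 genes, limma called 178 of 200 genes changed 2-fold and 11 unchanged genes. The simulated noise was independent between genes and mice, and only those 200 genes changed. In the measured data a bigenic mouse stood apart on the principal components and 35.9% of genes were called. The simulated rates may therefore not hold there. Tables and figures were made with Python 3.11.15, numpy 2.4.6, pandas 2.3.3 and matplotlib 3.10.9. Positions and exon lengths came from GENCODE on mm9, and promoters from RefSeq on GRCm38.p6. The TFEB and mTORC1 list was matched through synonyms where symbols had changed, and its members and those of all other lists were chosen with earlier results of these data known.

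All members are named; values per mouse are given for the members past the threshold and for Ctsb, Ctsd, Lamp1, Lamp2, Npc1 and Psap, and from each other list the 2 largest rises and falls past the threshold, with Tfeb, Tfe3 and Grn. Some genes that this rule names are not reported here. Ctss was given by mouse after its values were seen. The check of the labels used the transgene and Tardbp. Alternatives were pseudocounts of 10 and 0.1, no filter, a filter in every mouse, rescaling to the same total, quantile normalization, array weights, stricter thresholds and leaving out each mouse. Reads that map to several places, splicing and other experiments of the study were not analysed here.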

Additional observations from a re-analysis of the deposited data

Results flagged for a closer look

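In each group of 4 mice, the gap of an extreme value to the nearest other mouse was compared with Dixon's critical value for each of the 38 members. Of 76 groups, 10 were beyond it, where chance gives about 1 in 20. The extreme mouse was the shallowest bigenic mouse in 5 of the 10, another bigenic mouse in 1 and a nontransgenic mouse in 4.

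The shallowest bigenic mouse stood above the other bigenic mice for Fuca1 (757 normalized counts against 685 to 693), Lgmn (3325 against 2577 to 2630) and Ctsf (972 against 754 to 772). It stood below them for Hexa (523 against 679 to 696) and Gm2a (947 against 1343 to 1410). For Ctss, a bigenic mouse of another library was high (1262 against 779 to 848).

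Among the nontransgenic mice, single values were high for Arsb (2780 against 2506 to 2535) and Hgsnat (972 against 847 to 868) and low for Mcoln1 (593 against 663 to 676) and Lamp2 (540 against 651 to 666). These 4 values came from 4 different mice.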

How the results depend on the processing

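No paired analysis was possible because the columns carry none of the replicate numbers of the labels. The number of members called higher by limma stayed within 1.5 times the reported 10 in all settings except with a change of at least 1.5-fold also required, where it was 4, and ranged from 8 to 14 with each mouse left out. The number called lower, reported as 4, was 8 with array weights, 2 when rescaled to the same total, and 1 with no filter on low values, with an adjusted p-value below 0.01 or with a change of at least 1.5-fold, and 1 to 6 with each mouse left out. The median log2(fold change) of the members was 0.05 to 0.09 with each mouse left out and 0.0083 with quantile normalization, against 0.06 as reported. No member past the threshold changed sign in any setting. In the related lists, rescaling left 1 fall each among the other hydrolases and the other membrane proteins, and quantile normalization left 0 falls in the sorting list. With each mouse left out, rises and falls were 6 to 9 and 0 to 3 for the other hydrolases, 5 to 7 and 0 to 3 for the other membrane proteins, 1 to 2 and 4 to 10 for the V-ATPase, 3 to 5 and 0 to 1 for sorting, and 4 to 9 and, in each fit, 2 for TFEB and mTORC1. The cause of these differences was not tested. With no filter Ctsl, Arsb, Ppt1 and Psap lost their calls, with quantile normalization Ctsl and Psap, and when rescaled Arsb and Ppt1. With 1 mouse left out of the fit of each member, 266 values kept their side of the threshold, 29 lost a call and 9 gained one. No scaling moved the median of all genes by more than 0.1. Depth limits no member, the lowest being 168 normalized counts.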
